A study of Mus musculus with 13 samples.

Results

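The TRAV10 family is a group of Vα genes of the mouse T cell receptor (TCR) α locus, and it is present in 3 near-identical copies named TRAV10, TRAV10D and TRAV10N. Its members here were the functional α-chain clonotypes, that is, entries with an open CDR3 reading frame, whose V gene was called as one of these copies in any of 13 samples of sorted regulatory T (Treg) cells. This gave 1762 of 78521 functional clonotype entries, with 103 to 173 per sample.

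Every sample came from C57BL/6 male mice of genotype Foxp3LSL/y Cd4creERT2. In these mice a Thy1.1 reporter-STOP cassette blocks Foxp3, and 4-hydroxytamoxifen (4-OHT) activates a Cre recombinase expressed from Cd4 that removes the cassette and restores Foxp3 together with GFP. A single dose was given at postnatal day 14, and TCRβ+CD4+GFP+Thy1.1− cells of spleen and lymph nodes were taken 1.5 months (n = 2, age 8 weeks), 3 months (n = 4, age 3.5 months), 5 months (n = 2, age 5.5 months) and 7 months (n = 5, age 7.5 months) later. There was no untreated or unrescued group among the samples. The labels do not say that each sample was a separate mouse, so the p-values below measure the spread between samples, which may be technical.

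A TCR α chain is made in the thymus by joining a Vα gene to one of many Jα genes, with loss of bases from both ends and addition of untemplated bases in between. The joint encodes CDR3α, the loop that lies over the peptide in the peptide-MHC complex, while CDR1 and CDR2 are encoded by the V gene itself. The locus can rearrange more than once in the same cell, and each later joint replaces the earlier one with a V gene farther upstream and a J gene farther downstream. J genes are numbered so that high numbers lie nearest to the V genes, and the number of the J partner therefore records how far along the J array a joint was made. The mouse Vα array carries internal duplications, and the letters D and N mark the duplicated copies.

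The libraries held 509818 to 936831 counts each, of which the TRAV10 family took 8574 to 17528. In functional counts, 3 counts correspond to 3.40e-04% to 6.29e-04% of a sample. Invariant-type chains of other T cells were rare, with TRAV11-TRAJ18 at 0 to 0.117% and TRAV1-TRAJ33 at 0 to 0.128% of functional counts. The library of 3 months replicate 4 stood apart, sharing 12 TRAV10 clonotypes with 5 months replicate 1 and 9 with 1.5 months replicate 1, against a median of 1 over the 78 pairs of samples.

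The 3 copies lie on the plus strand of chromosome 14 in the GRCm38 build, each with 2 exons in the GENCODE annotation. TRAV10D (Trav10d, ENSMUSG00000094792.3) is at chr14:52810934-52811496, TRAV10N (Trav10n, ENSMUSG00000095646.1) at chr14:53122114-53122610 and TRAV10 (Trav10, ENSMUSG00000096551.2) at chr14:53505727-53506286. The ends of TRAV10D, TRAV10N and TRAV10 are 1344, 1032 and 649 kb upstream of TRAJ61, the first J gene of the annotation. Their second exons, which encode the V domain, are 291 bases long. TRAV10 and TRAV10D differ there at 2 positions, T32C and T98C, counted from 1 at the 5′ end of the exon with the TRAV10 base first. The nearer of these is 193 bases from the end of the exon. TRAV10N differs from TRAV10 by G5A, T32C, T98C, T199C and G206A, the last of which is 85 bases from the end. The last 90 bases of this exon are shown because they hold the base that sets TRAV10N apart nearest to the CDR3, in capitals. The stretch of TRAV10D is the same as that of TRAV10.
TRAV10 (chr14:53506197-53506286, plus strand): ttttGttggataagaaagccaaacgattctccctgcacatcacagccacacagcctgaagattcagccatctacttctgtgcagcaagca
TRAV10N (chr14:53122521-53122610, plus strand): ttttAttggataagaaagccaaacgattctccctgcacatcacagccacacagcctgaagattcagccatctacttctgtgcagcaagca

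The germline start of the CDR3, from the codon of the conserved cysteine to the end of the exon, is 13 bases long and identical in the 3 copies. It is shown beside those of genes from the 2 families in which TRAV10 CDR3 sequences were found most often, with the bases that match TRAV10 from the 5′ end in capitals. TRAV12-3 is added as a gene with a different start.
TRAV10, TRAV10D and TRAV10N: TGTGCAGCAAGCA
TRAV7D-2 (chr14:52684460-52684472, plus strand): TGTGCAGCAAGCA
TRAV14D-1 (chr14:52856154-52856166, plus strand): TGTGCAGCAAGtg
TRAV12-3 (chr14:53622232-53622245, plus strand): TGTGCtctgagtga
Of 98 V genes whose germline start could be read from the annotated transcripts, TRAV7D-2 was the sole gene outside the family that shared all 13 bases. Shorter annotated starts matched TRAV10 to their last base in TRAV7-2 (12 bases), TRAV14-2 and TRAV14D-2 (9 bases each), so these genes could not share 13.

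Gene-copy use was uneven. The original copy, TRAV10, held 1039 of the 1762 clonotypes, TRAV10N held 493 and TRAV10D held 230. In single samples TRAV10 took 49.5% to 68.8% of the family's clonotypes (58.6 ± 5.79%, SD, n = 13), TRAV10N 20.8% to 37.9% (28.4 ± 5.48%) and TRAV10D 6.73% to 22.6% (12.97 ± 4.28%). The ranges of the 3 copies did not meet except for TRAV10N and TRAV10D, and in 7 months replicate 1 both stood at 28 clonotypes. Copy calls were not fixed to a CDR3. Of 162 CDR3 nucleotide sequences found under TRAV10 copies in 2 or more samples, 91 were listed under 1 copy, 63 under 2 and 8 under all 3 copies. A CDR3 can arise from each copy on its own, since the copies share their germline CDR3 start, so this count does not tell how many calls were exchanged.

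The copies joined different stretches of the J array. Clonotypes of TRAV10N had a mean J number of 17.4 to 25.3 per sample (median 21.5), those of TRAV10 26.4 to 30.5 (median 27.9) and those of TRAV10D 22.5 to 33.6 (median 29.2). TRAV10N stood below TRAV10 in 13 of 13 samples, and the 2 ranges did not overlap. The difference was -6.91 J numbers (SD 2.95, n = 13; two-sided exact sign-flip permutation test over samples, p = 0.000244, the smallest the test can give, adjusted p = 0.000732 over 3 pairs). TRAV10N was also below TRAV10D in 12 of 13 samples (difference -7.46, SD 3.70; exact p = 0.000488, adjusted p = 0.000732). Between TRAV10D and TRAV10 the difference of 0.548 was smaller than its spread (SD 3.46; higher in 7 of 13 samples; exact p = 0.576). With CDR3 sequences left out that any sample listed under another V family, the TRAV10N differences were -6.89 and -8.33.

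**Figure D1:**
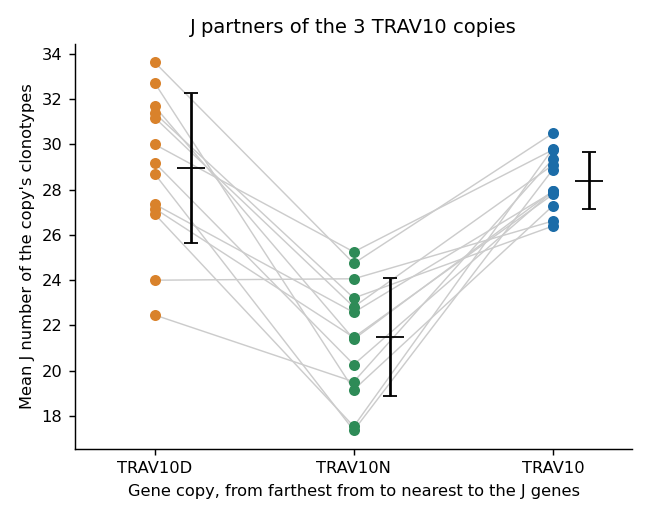
Mean J number (vertical axis) of the clonotypes of each TRAV10 copy in each of 13 samples, with grey lines joining the copies of 1 sample and black bars giving the mean ± SD. TRAV10N lies at 17.4 to 25.3, below every TRAV10 point of the same sample.

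The same contrast was visible in the classes of J genes. Joints to TRAJ2 to TRAJ20, the downstream part of the array, made up 51.9% of the TRAV10N clonotypes (256 of 493), 24.4% of TRAV10 (253 of 1039), 18.3% of TRAV10D (42 of 230) and 31.4% of all other clonotypes. Joints to TRAJ21 to TRAJ40 made up 38.9%, 60.7%, 66.5% and 49.6% in the same order. Upstream J genes, TRAJ41 and higher, took 9.13% of TRAV10N, 14.9% of TRAV10, 15.2% of TRAV10D and 19.0% of the rest. Of single J genes, TRAJ15 was joined by 10.8% of TRAV10N (53), 5.49% of TRAV10 (57) and 2.17% of TRAV10D clonotypes (5). TRAJ31 was joined by 3.45% of TRAV10N (17), 9.14% of TRAV10 (95) and 15.2% of TRAV10D clonotypes (35). In the rest the means over samples were 5.69% for TRAJ15 and 5.36% for TRAJ31. These pooled shares of single copies were not tested.

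Non-functional joints, which are carried along without selection on the protein they would encode, were fewer. In these the TRAV10N differences kept their sign but had a larger spread relative to their size (-5.20 against TRAV10, exact sign-flip permutation p = 0.135, and -4.58 against TRAV10D, exact p = 0.192).

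For comparison, the mean J number was taken for the 89 V genes with at least 100 functional clonotypes, out of 104 V genes, each of which was found in the annotation. Across these genes a larger distance to the J genes went with a lower mean J number (Spearman rho -0.672 over 89 genes, given as a description, since the genes share libraries). TRAV10N (21.4 over pooled clonotypes) lay close to the nearest genes on either side, TRAV6N-5 (20.5) and TRAV6N-6 (21.03). TRAV10 (28.3) likewise lay between TRAV6-5 (27.4) and TRAV6-6 (28.8). TRAV10D (29.6) had the highest mean J number of the 39 genes more than 1000 kb from the first J gene. The median of these genes was 22.6 and the next highest value was 28.6, for TRAV9D-2. The SD over samples was 3.32 for TRAV10D and 3.07 for TRAV9D-2, more than the gap between their pooled values. Neighbours of TRAV10D were TRAV6D-5 at 25.9 (110 clonotypes) on the far side and, towards the J genes, TRAV6D-6 at 26.3 (10 clonotypes) and TRAV7D-5 at 22.6 (665 clonotypes). TRAV10D thus had a value near that of TRAV10, from which its exon differs by T32C and T98C, both at least 193 bases before its end. Whether reads of TRAV10 were listed under TRAV10D was not tested.

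**Figure D2:**
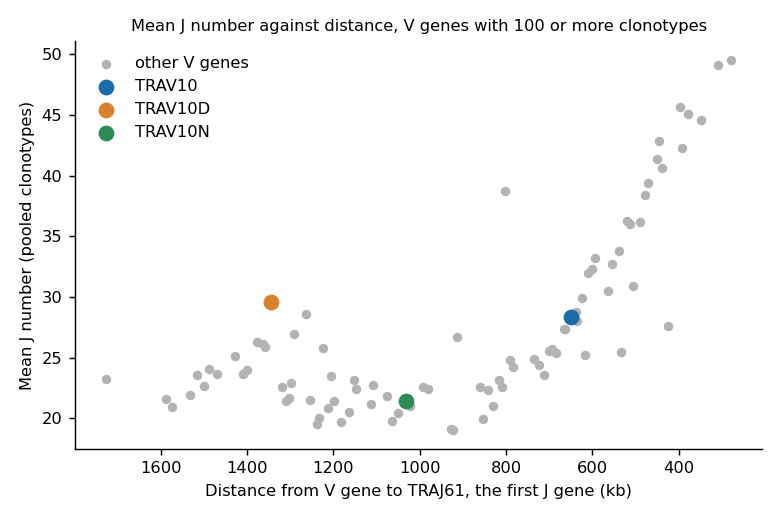
Mean J number of pooled functional clonotypes (vertical axis) against the distance in kb from each V gene to TRAJ61 (horizontal axis, decreasing to the right) for 89 V genes, with the TRAV10 copies coloured. TRAV10 and TRAV10N lie among their neighbours, and TRAV10D lies at the top of the genes more than 1000 kb away.

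As a whole the family joined every J gene of the tables but TRAJ61, from 7 clonotypes with TRAJ58 to 147 with TRAJ31. Its 3 most used partners were TRAJ31, TRAJ15 (115) and TRAJ21 (109). J use was compared with that of all other clonotypes of the same samples by edgeR's quasi-likelihood test with the sample as a block and Benjamini-Hochberg adjustment over 43 J genes. Of these, 4 passed an adjusted p of 0.05 (9.3% of those tested), with 1 higher (2.33%) and 3 lower (6.98%) in the TRAV10 family.

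TRAJ31 was the J gene used more by the TRAV10 family as a whole. It took 2.88% to 10.5% of TRAV10 clonotypes per sample (median 8.64%) and 4.89% to 5.87% of the rest (median 5.34%), and it was higher in TRAV10 in 12 of 13 samples. The log2 difference was 0.64 (SE 0.16, adjusted p = 0.00227, edgeR). By copy, pooled over samples, TRAJ31 took 9.14% of TRAV10, 15.2% of TRAV10D and 3.45% of TRAV10N clonotypes, so the 493 TRAV10N clonotypes lay below the mean of the rest (5.36%), which was not tested. TRAJ31 lies at chr14:54187895-54187951, in the middle of the array.

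The J genes used less were TRAJ44 and TRAJ52 in the upstream part and TRAJ22 in the middle. TRAJ44 was found in 8 TRAV10 clonotypes, at 0 to 1.23% per sample against 1.31% to 1.88% in the rest, so the ranges did not overlap (log2 difference -1.79, SE 0.45, adjusted p = 0.00227, edgeR). TRAJ52 was found in 10 clonotypes, at 0 to 1.61% against 1.12% to 1.69%, lower in 12 of 13 samples (log2 difference -1.38, SE 0.43, adjusted p = 0.0228). Neither TRAJ44 nor TRAJ52 was joined by any of the 493 TRAV10N clonotypes. TRAJ22 took 0.962% to 5.20% against 3.60% to 4.72%, lower in 11 of 13 samples (log2 difference -0.60, SE 0.21, adjusted p = 0.0442). TRAJ31 and TRAJ44 kept their calls in each of the 13 fits that left out 1 sample, while TRAJ52 lost its call without 1.5 months replicate 1 or 7 months replicate 3 and TRAJ22 in 9 of 13 such fits. By DESeq2 TRAJ52 and TRAJ22 missed the threshold (adjusted p = 0.0503 and 0.122) at log2 differences of -1.38 and -0.63. None of the 4 calls remained with counts summed per J gene in place of counting each clonotype once (edgeR adjusted p 0.103 to 0.275), although the log2 differences there were 0.40 for TRAJ31, -5.43 for TRAJ44, -3.54 for TRAJ52 and -1.55 for TRAJ22. The calls were also lost when CDR3 sequences listed under another V family were left out (adjusted p 0.0662 to 0.0999), at 0.46, -1.73, -1.22 and -0.59 in the same order. The most used partners TRAJ15 (6.40 ± 2.80% against 5.69 ± 0.599%) and TRAJ21 (5.92 ± 2.99% against 5.42 ± 0.311%, SD, n = 13) did not pass the test. In non-functional joints, where 8 J genes could be tested, TRAJ21 was the gene called higher with TRAV10 (log2 difference 1.70, edgeR adjusted p = 0.00140) and TRAJ31 was at -0.0093.

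**Figure D3:**
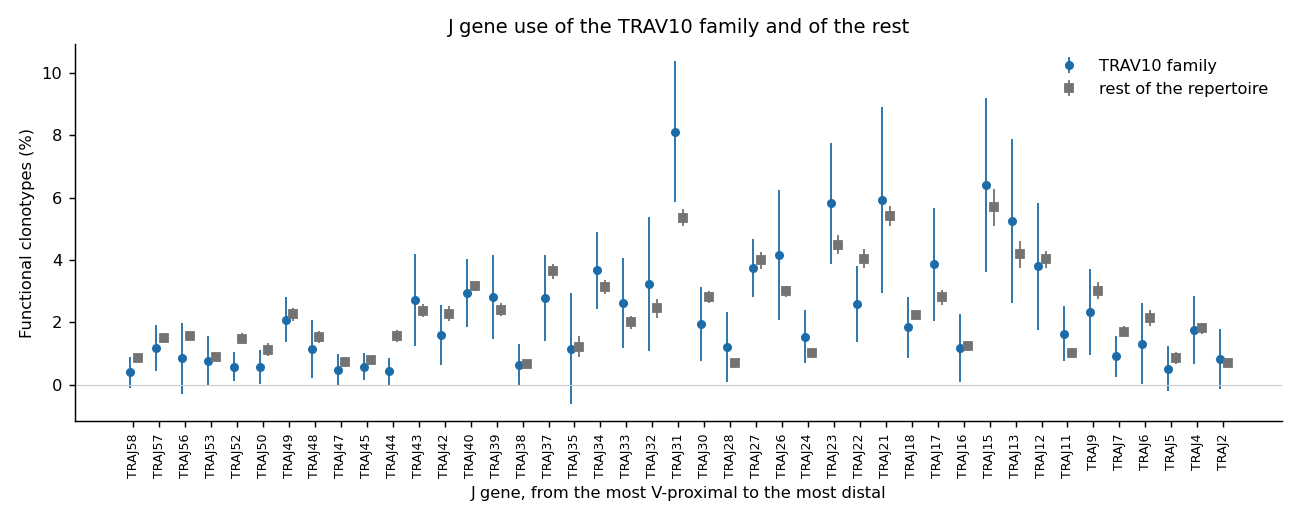
Share of functional clonotypes (vertical axis, %) joined to each J gene, ordered from nearest to the V genes (left) to farthest (right), for the TRAV10 family (circles) and the rest of the repertoire (squares), as mean ± SD over 13 samples. TRAJ31 stands highest in TRAV10 at 8.11%, and TRAJ44 and TRAJ52 lie below the rest.

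CDR3 loops of the family mostly kept their germline start. Of the 1762 clonotypes, 1255 (71.2%) began with CAAS, the amino acids the germline bases encode, against 18.9% of the rest, and 7.09% began with CAAR. The start was not particular to TRAV10, since CAAS also began 7279 of 11773 TRAV14, 1748 of 3062 TRAV5 and 5234 of 14771 TRAV7 clonotypes. In 44.3% of the TRAV10 clonotypes the 13 germline bases were intact. Behind CAAS the most frequent residues were arginine (16.97%), methionine (15.1%) and lysine (10.9%), against 8.24%, 2.78% and 2.98% behind CAAS in other families, where TRAV14 and TRAV7 gave most such loops. The last germline base of TRAV10, an a, is the first base of the codon behind CAAS where it is kept.

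Loops were of ordinary length. Mean length was 13.2 to 13.6 amino acids per sample in TRAV10 and 13.5 to 13.6 in the rest, and the difference of -0.0752 (SD 0.138) was within the spread over samples (exact sign-flip permutation p = 0.0776, adjusted p = 0.0998 over 9 measures). Lengths 13 and 14 made up 33.8% and 30.0% of TRAV10 clonotypes, and single loops ran from 7 to 38 amino acids.

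More bases lay between the V and J ends than in other families. TRAV10 joints held a mean of 2.06 to 3.04 inserted bases per sample (median 2.35), against 2.07 to 2.24 (median 2.17) in the rest. They were higher in 11 of 13 samples, by 0.322 bases (SD 0.327; exact sign-flip permutation p = 0.00146, adjusted p = 0.00264). Joints with 0 inserted bases made up 18.8% to 31.1% (median 22.1%) against 29.2% to 32.3% (median 31.1%), lower in 13 of 13 samples (difference -7.62 percentage points, SD 3.81; exact p = 0.000244, adjusted p = 0.00110). Of the 19 V families tested TRAV10 had the smallest share of such joints, with TRAV12 next at 27.2%, and the highest mean of inserted bases, which TRAV9 matched at 2.48. These numbers rest on the V and J ends called for each entry, and the calls could differ for the same bases. A sequence encoding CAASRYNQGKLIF had 0 inserted bases as TRAV10N in 3 months replicate 3 and 2 as TRAV10 in 5 months replicate 2. How far such calls moved the means was not tested.

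These tables list each CDR3 nucleotide sequence once per sample, under a single V gene, and this touched TRAV10 more than other families. Of the family's 1568 distinct CDR3 nucleotide sequences, 423 (27.0%) were listed under another V family in at least 1 sample. Counted by clonotype this came to 30.2% of TRAV10, at 24.5% to 39.8% per sample against 5.66% to 6.70% in the rest, and it was the highest share of the 19 families, followed by TRAV1 at 12.6% and TRAV14 at 11.4%. Of the 990 entries that carried a TRAV10 CDR3 under another family, 577 were TRAV7D-2, whose germline start shown above is identical, and 388 were TRAV14 genes. The share fell with inserted bases, from 50.5% of TRAV10 joints with 0 inserted bases and 50.6% with 1 to 32.3% with 2, 19.7% with 3, 11.7% with 4 and 3.80% with 5 or more. It fell in the rest too, from 10.8% with 0 inserted bases to 0.572% with 5 or more, so the fall was not particular to TRAV10. How many TRAV10 joints with few inserted bases were listed under another gene in the same sample cannot be told from these tables. Leaving such clonotypes out cannot settle this, since it takes away mainly joints with few inserted bases and more of them from TRAV10 than from the rest.

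**Figure D4:**
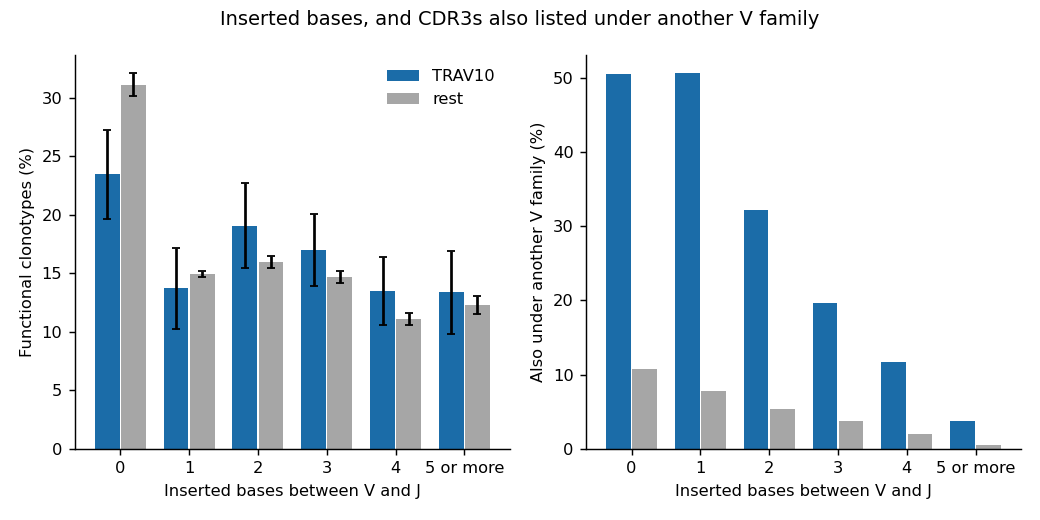
Left, share of functional clonotypes (vertical axis, %) by the number of inserted bases (horizontal axis) in TRAV10 (blue) and the rest (grey), mean ± SD over 13 samples. Right, share of the pooled clonotypes of each class whose CDR3 nucleotide sequence was also listed under another V family, which falls from 50.5% to 3.80% in TRAV10 and from 10.8% to 0.572% in the rest.

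The mean J number of the family was 24.8 to 29.6 per sample against 27.1 to 28.1 in the rest, lower in 10 of 13 samples (difference -1.04, SD 1.19; exact sign-flip permutation p = 0.0137, adjusted p = 0.0205). Without the CDR3 sequences listed under several V families the difference was -0.479 (exact p = 0.185). By copy, the means over 13 samples were 28.4 for TRAV10, 28.95 for TRAV10D and 21.5 for TRAV10N against 27.6 in the rest, so TRAV10N was the copy that lay below the rest.

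Clone sizes of the family overlapped with those of the repertoire. A TRAV10 clonotype had a median count of 44 to 124 per sample (median 65.5), against 36 to 99.5 (median 51) for the rest, and the TRAV10 median was the higher one in 12 of 13 samples (difference 11.9 counts, SD 7.73; exact sign-flip permutation p = 0.000732, adjusted p = 0.00220). Among the 19 families the mean of the sample medians was higher than that of TRAV10 (68.35) in 5, up to 84.0 in TRAV21, and TRAV9 lay far below the others at 10.5. Without the CDR3 sequences listed under several V families this difference was 6.08 counts (exact p = 0.0964). The family's share of counts lay near its share of clonotypes. The log2 ratio of the 2 shares was -0.54 to 0.40 over the samples, with a mean difference from the rest of -0.02 (SD 0.26, exact p = 0.795). Clonotypes of 3 or fewer counts made up 16.8% of TRAV10 and 21.2% of the rest, and those of 1000 or more counts 0.454% (8 clonotypes) and 0.651%, over pooled samples.

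The most abundant clonotype of each time point is given with its CDR3 nucleotide sequence, inserted bases in capitals. Intervals are 95% Wilson intervals and cover counting error only, since PCR copies are not independent molecules.
1.5 months replicate 1, TRAV10D-TRAJ31: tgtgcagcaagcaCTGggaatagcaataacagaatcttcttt
3 months replicate 4, TRAV10-TRAJ27: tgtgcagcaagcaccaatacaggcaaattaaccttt
5 months replicate 1, TRAV10N-TRAJ40: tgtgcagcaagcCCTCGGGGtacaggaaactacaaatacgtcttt
7 months replicate 5, TRAV10-TRAJ24: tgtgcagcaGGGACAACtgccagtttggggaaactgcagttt
At 1.5 months the largest clonotype, encoding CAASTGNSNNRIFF, held 396 counts, 0.0715% of functional counts (0.0648% to 0.0789%), and was found in no other sample. The 5-month clonotype with 8 inserted bases held 831 counts, 0.153% (0.143% to 0.164%), and was also private.

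The largest TRAV10 clonotype of the series was TRAV10-TRAJ24 with the loop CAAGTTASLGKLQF, which had 3817 counts in 7 months replicate 5, 0.718% of functional counts (0.696% to 0.741%) and 21.8% of that sample's TRAV10 counts. Its CDR3 nucleotide sequence had 74 counts in 1.5 months replicate 1 and 1 count in 3 months replicate 1, again as TRAV10-TRAJ24, and was not listed in the other 10 samples. The same 7-month sample held a TRAV10N-TRAJ17 clonotype with 3295 counts, 0.620% (0.599% to 0.641%). Its CDR3 nucleotide sequence was listed in 1 other sample, again 3 months replicate 1, with 2 counts as TRAV10N-TRAJ17. These 2 libraries shared 5 TRAV10 clonotypes, against a median of 1 over the 78 pairs, and 3.11% of all their clonotypes, against a median of 1.59%. Whether such trace counts were carried over between libraries was not tested.

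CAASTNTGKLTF, with TRAJ27, had 3597 counts in 3 months replicate 4, 0.634% of functional counts (0.613% to 0.655%) and 28.1% of its TRAV10 counts. This joint needs no inserted base, and it was listed in 11 of 13 samples. Under a TRAV10 copy it was listed in 4 samples, with 549 counts under TRAV10N in 3 months replicate 3, 101 under TRAV10D in 5 months replicate 1 and 158 under TRAV10 in 5 months replicate 2. In the remaining 7 samples the same bases were listed under TRAV7D-2 with 21 to 308 counts or, in 3 months replicate 2, under TRAV14D-1 with 1292 counts.

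Sharing between samples depended on how a clonotype was matched. When the V gene, the J gene and the CDR3 bases all had to match, 5.80% to 24.6% of TRAV10 clonotypes per sample (median 10.6%) were found in another sample, against 20.6% to 34.9% (median 23.4%) of the rest. The TRAV10 share was lower in 13 of 13 samples (difference -11.9 points, SD 2.64; exact sign-flip permutation p = 0.000244, adjusted p = 0.00110), and was the lowest of the 19 V families. Without the 3 libraries that shared most clonotypes the difference was -11.01 points (exact p = 0.00195). Matched by V family in place of V gene, in TRAV10 and in the rest alike, the mean shares were 20.4% and 34.2%. Matched by CDR3 nucleotide sequence alone, whatever the V gene, the order turned, with 39.9 ± 6.84% of TRAV10 and 36.8 ± 4.01% of other clonotypes found elsewhere (SD, n = 13; higher in 10 of 13 samples; exact p = 0.0525). Matched by CDR3 amino-acid sequence, again whatever the V gene, 59.9% to 74.6% (median 66.7%) of TRAV10 clonotypes were shared, against 58.2% to 66.7% (median 61.1%) of the rest. A loop listed in another sample only under a different V family thus counted as shared. The share was higher in TRAV10 in 12 of 13 samples, by 5.29 points (SD 3.46; exact sign-flip permutation p = 0.000977, adjusted p = 0.00220). As a mean over samples TRAV10 (66.27%) was below TRAV14 (72.6%), TRAV4 (66.6%) and TRAV7 (66.35%) and above the other 15 of the 19 families. The difference was 4.89 points without those 3 libraries (exact p = 0.00586). Without CDR3 sequences listed under several V families the difference was -8.01 points, but each such sequence is by construction in another sample, so that setting takes away shared sequences, and a larger share of TRAV10 than of the rest.

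Within the family most loops were listed under TRAV10 in 1 sample. The matching counts for other families are not given here, so the counts below do not set TRAV10 apart from them. Of 1388 distinct TRAV10 CDR3 amino-acid sequences, 1161 (83.6%) were listed under TRAV10 in 1 sample, 167 in 2, 44 in 3, 14 in 4, 1 in 5 and 1 in 8 samples. If any V gene was allowed, 804 of the 1388 (57.9%) were found in 2 or more samples and 28 in all 13 samples, and 765 (55.1%) were also listed under another V family.

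Of the 16 loops listed under TRAV10 in 4 or more samples, 15 began with CAAS. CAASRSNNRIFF was listed under TRAV10 in 8 samples, with 27 to 200 counts per entry, and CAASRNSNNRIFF in 5 samples with 34 to 340 counts. Both join TRAJ31, the J gene used more by the family, and each was encoded by several nucleotide sequences, 3 and 4 under TRAV10. Of the 14 loops found in 4 samples, the 3 with the highest mean share of counts are named. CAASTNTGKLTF (TRAJ27, 101 to 3597 counts), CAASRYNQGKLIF (TRAJ23, 27 to 793 counts) and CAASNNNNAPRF (TRAJ43, 74 to 352 counts) were each listed under each of the 3 copies. The encodings of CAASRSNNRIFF are shown because they differ only in how the arginine codon was made, with inserted bases in capitals.
Found in 6 samples under TRAV10: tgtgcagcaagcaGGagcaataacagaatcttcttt
Found in 3 samples under TRAV10: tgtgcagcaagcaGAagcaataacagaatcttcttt
Found in 1 sample under TRAV10: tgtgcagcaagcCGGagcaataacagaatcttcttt
The first and second keep the last germline base of TRAV10 and add 2 bases, and the remaining one has lost that base and adds 3. The first was listed in 8 samples and the second in 4 if TRAV7D-2 entries were counted, and the last was not listed under another V gene.

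The study asked how the repertoire of these cells fared over time, and later time points were set against 1.5 months. The family took 2.16% and 2.32% of functional clonotypes at 1.5 months (counting intervals 1.87% to 2.51% and 1.98% to 2.72%). At 3 months the 4 samples had 1.82%, 1.83%, 1.93% and 2.65%, at 5 months the 2 samples had 2.13% and 2.51%, and at 7 months the 5 samples had 2.01%, 2.45%, 2.45%, 2.50% and 2.62%. The time points overlapped. In an edgeR quasi-likelihood fit over 19 V families the log2 change was 0.06 at 7 months (SE 0.13, adjusted p = 0.830), 0.05 at 5 months (SE 0.17, adjusted p = 0.889), -0.13 at 3 months (SE 0.14, adjusted p = 0.707) and 0.03 per month as a trend (SE 0.02, adjusted p = 0.548). The 7-month change turned to -0.048 when blocked on replicate number and to -0.042 without CDR3 sequences listed under another V family, and the 5-month change to -0.12 without those sequences and to -0.038 without 5 months replicate 1. The trend was 0.0090 without those sequences, 0.042 without 7 months replicate 2 and 0.051 with summed counts. With 1 sample left out at a time the change ran from 0.016 (without 1.5 months replicate 1) to 0.15 (without 7 months replicate 2) at 7 months, and from -0.26 (without 3 months replicate 3; edgeR adjusted p = 0.291) to -0.078 (without 3 months replicate 4) at 3 months. With counts summed in place of clonotypes it was 0.40, 0.32 and 0.31 at 7, 5 and 3 months (edgeR adjusted p = 0.992, 0.711 and 0.662). With at least 2 counts per clonotype the change was 0.11 at 7 months and 0.13 at 5 months. Without clonotypes 100 times more abundant in another library it was 0.11 at both times. With non-functional clonotypes kept it was 0.11, 0.13 and -0.035 at 7, 5 and 3 months. Library totals gave 0.099 at 7 months. At 7 months 0 of 19 families passed (0%), with 3 at an unadjusted p under 0.05 and 0 by DESeq2. At 3 months 1 family passed (5.26%), which was TRAV9 and not TRAV10, and 0 passed by DESeq2. The families next in size, TRAV16 above and TRAV15 below, held 2.57% and 1.16% of clonotypes against 2.26% for TRAV10, as means over 13 samples.

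In counts, the family held 1.88% and 2.00% at 1.5 months, 1.75% to 2.53% at 3 months, 2.13% and 2.18% at 5 months, and 1.80% to 3.30% at 7 months. The 7-month mean of 2.51 ± 0.564% was 0.572 points above that at 1.5 months, and the ranges overlapped (two-sided exact permutation test over 540540 arrangements, maximum over 3 comparisons, p = 0.272, adjusted p = 0.815). That difference was 0.376 points without 7 months replicate 5, 0.332 without the largest TRAV10 clonotype of each sample and 0.288 when blocked on replicate number. The changes at 3 months (0.186 points, exact p = 0.914) and 5 months (0.217 points, exact p = 0.911) did not pass this permutation test either. Both 5-month samples lay above both 1.5-month samples. Without the largest TRAV10 clonotype of each sample the changes were -0.0013 points at 3 months and 0.129 points at 5 months. The 3-month value was 0.0518 without 3 months replicate 3, 0.309 without 3 months replicate 1 and 0.0989 when blocked.

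**Figure D5:**
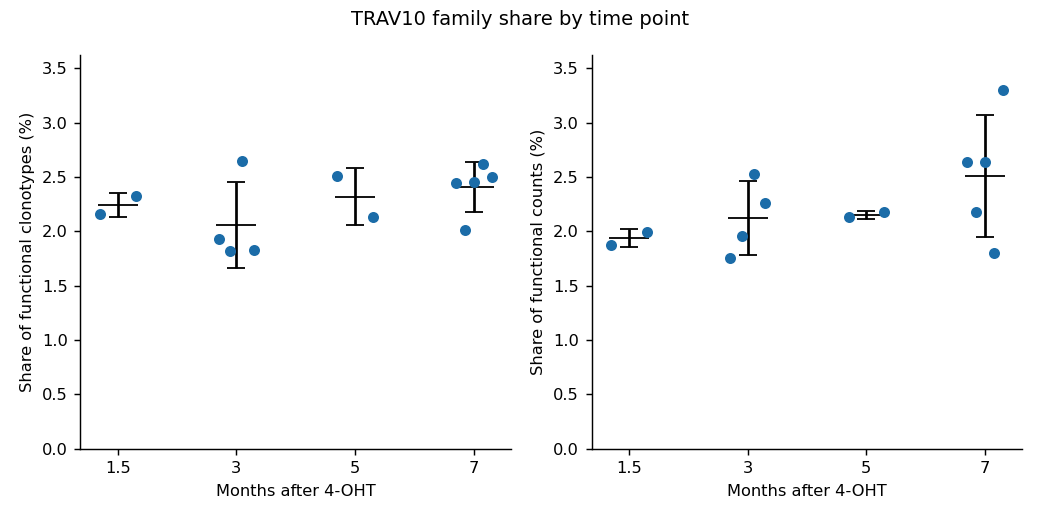
Share of functional clonotypes (left) and of functional counts (right) held by the TRAV10 family, in %, by months after 4-OHT, with 1 point per sample and bars for the mean ± SD. The time points overlap in clonotype share. In count share both samples at 5 months lie above both at 1.5 months, and the other pairs of time points overlap. The highest count share, 3.30%, is 7 months replicate 5, which held the largest TRAV10 clonotype.

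The number of TRAV10 clonotypes was 151 and 173 at 1.5 months, 104 to 162 at 3 months, 103 and 135 at 5 months and 124 to 153 at 7 months, alongside 7248, 6399, 5108 and 5643 functional clonotypes per sample on average. The falls of 30.8, 43 and 27 clonotypes did not pass the exact permutation test (p = 0.180, 0.0971 and 0.237, adjusted p = 0.994 for each). The fall at 3 months was 19.8 clonotypes without 1.5 months replicate 1, and that at 5 months was 27 without 5 months replicate 2. The fall at 7 months was 16 clonotypes without 1.5 months replicate 1 and 38 without 1.5 months replicate 2. Without 3 months replicate 3, the differences at 3 and 5 months reached p = 0.0397 and p = 0.0491 before adjustment, in the exact permutation test.

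The copies did not change past the test. TRAV10N held 20.8% and 21.9% of the family's clonotypes at 1.5 months, 22.6% to 36.1% at 3 months, 29.6% and 37.9% at 5 months and 22.6% to 33.3% at 7 months, so both 1.5-month samples lay below the others. In the fit over 90 V genes its share of the repertoire gave log2 changes of 0.37, 0.68 and 0.44 at 3, 5 and 7 months (edgeR adjusted p = 0.744, 0.389 and 0.694). TRAV10 gave -0.31, -0.23 and -0.17 (adjusted p = 0.505, 0.877 and 0.771) and TRAV10D -0.16, -0.05 and 0.38 (adjusted p = 0.929, 0.998 and 0.790). The 7-month value of TRAV10D was 0.13 without 1.5 months replicate 1, 0.66 without 1.5 months replicate 2 and 0.19 without 7 months replicate 1, and that of TRAV10N was 0.14 in a fit blocked on replicate number. At 7 months 0 of 90 V genes passed (0%), with 6 at an unadjusted p under 0.05 and 0 by DESeq2.

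The largest TRAV10 clonotype of a sample held 0.0477% and 0.0715% of functional counts at 1.5 months, 0.0569% to 0.634% at 3 months, 0.147% and 0.153% at 5 months and 0.0761% to 0.718% at 7 months. Each sample at 5 and 7 months lay above both 1.5-month samples, but the differences in means (0.191, 0.0901 and 0.247 points at 3, 5 and 7 months) did not pass the exact permutation test (p = 0.722, 0.989 and 0.447, adjusted p = 0.994 for each). The 3-month difference was 0.0629 points without 3 months replicate 4, and the 7-month difference was 0.144 without 7 months replicate 5 and 0.0515 when blocked on replicate number, where the 3-month difference was 0.0983. The 10 largest clonotypes took 19.8% and 25.7% of the family's counts at 1.5 months, 24.98% to 46.9% at 3 months, 35.0% and 35.8% at 5 months and 29.1% to 59.9% at 7 months. The 3-month range overlapped that at 1.5 months, and no test was made. Mean CDR3 length, inserted bases and J number also did not pass at any time, with exact permutation p of 0.376 or more. With 2 samples each at 1.5 and 5 months, changes within the spread of single samples were not detectable.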

How the data were processed

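TCRα cDNA was amplified by 5′ RACE from sorted rescued Treg cells, and the authors assembled clonotypes with MiXCR and processed them with VDJtools. The deposited tables give, for each clonotype, a raw count and the authors' fraction of the sample's counts, which no test used, with V and J calls, the CDR3 and the VEnd and JStart positions. Inserted bases are those between these positions. Entries with a stop or frameshift were left out, except where non-functional joints are named. GRCm38 is the build in the submitters' notes, and positions came from GENCODE.

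Families, V genes and J genes were tested on numbers of clonotypes by edgeR 4.0.16 in R 4.3.3 (filterByExpr; TMM, or library totals for J genes), with DESeq2 1.42.0 as an alternative. Within-sample differences used exact sign-flip tests over 8192 assignments, and time points exact permutations (Python 3.11.15, scipy 1.17.1), each tested on simulated data. Named J genes had an adjusted p under 0.05 or were the 3 most used. Named clonotypes were the largest of each time point and the 5 loops found in most samples (ties by mean share of counts), and TRAV10N-TRAJ17 was added after its value was seen. The members and lists were chosen with earlier results of these data known. Whether counts are reads or molecules is not given in the sources used here.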

Additional observations from a re-analysis of the deposited data

Results flagged for a closer look

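In 3 months replicate 3 the TRAV10 family took 2.65% of functional clonotypes, apart from the other 3 samples of its time point at 1.82% to 1.93%. In 7 months replicate 2 it took 2.01%, below the other 4 samples of its time point at 2.45% to 2.62%. Each stood apart by Dixon's test at the 95% level, among 42 sets of values of 4 or 5 samples, and chance alone marks about 5% of such sets.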

How the results depend on the processing

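Replicate numbers recur at each time point without a stated link between them, and 5 of 14 same-numbered pairs had a correlation of deviations over 0.1 across 19 families. Same-numbered pairs ran from -0.49 to 0.53 with a mean of -0.060, against a mean of 0.019 for differently numbered pairs, so they were not more alike on average. With a replicate block no call changed in 28 results, and the log2 change of the family at 7 months turned to -0.048. The block moved the 7-month change of TRAV10N from 0.44 to 0.14 and of the largest clonotype's share from 0.247 to 0.0515 points (0.191 to 0.0983 at 3 months). It moved the family's count share from 0.572 to 0.288 points at 7 months and from 0.186 to 0.0989 at 3 months, and its log2 change at 3 months from -0.13 to -0.25.

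Leaving out CDR3 sequences listed under another V family, chosen after seeing the data, gave log2 changes of the family of -0.042 at 7 months and -0.12 at 5 months, 0 higher and 0 lower J genes, and differences from the rest of 0.0472 amino acids in length, -0.479 in J number, 6.08 in median count and -8.01 points in amino-acid sharing. A sequence listed under another family is by construction in another sample, so this setting lowers sharing more in TRAV10, of which it removes more. Matching by CDR3 nucleotides alone gave 3.10 points, also added later, as were the copies' J numbers in non-functional joints, -5.20 and -4.58.

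The J genes called higher and lower were 2 and 1 by DESeq2 (TRAJ52 and TRAJ22 lost, and TRAJ61 added as higher, which goes against the data, since TRAJ61 has 0 TRAV10 clonotypes), 0 and 0 with summed counts, 3 and 7 with at least 10 counts per clonotype, and 1 (TRAJ21) and 0 in non-functional joints. With summed counts the family's log2 change was 0.31 at 3 months, 0.32 at 5 and 0.40 at 7, TRAJ15 -0.51 and TRAJ21 -0.20. In non-functional joints TRAJ15 was -0.26 and TRAJ31 -0.0093. Library totals gave the TRAV10 copy a trend of 0.0033. Without the largest clonotype the count share at 3 months changed by -0.0013 points. Length at 7 months differed by -0.0039 with at least 2 counts and by -0.0332 with at least 10. Weighted by counts, length differed from the rest by -0.117 and J number by -0.685. The causes were not tested.

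Leaving out 1 sample at a time changed the following. The family's log2 change at 5 months ran from -0.038 to 0.18, negative without 5 months replicate 1, at 7 months from 0.016 to 0.15 and at 3 months from -0.26 to -0.078, its count share at 3 and 7 months from 0.0518 to 0.309 and 0.376 to 0.751 points, the family's trend from 0.020 to 0.042, and the trend of the TRAV10 copy from -0.017 to 0.012. J genes called higher ran from 1 to 2 (2 without 7 months replicate 2) and lower from 1 to 3 (1 without 7 months replicate 3). CDR3 length changed by -0.232 to 0.137, -0.303 to 0.0661 and -0.157 to 0.212 at 3, 5 and 7 months, inserted bases by -0.414 to 0.235 and -0.369 to 0.280 at 3 and 7 months, and J number by -0.272 to 1.03 and -0.110 to 0.492. The number of clonotypes changed by -41.8 to -19.8 at 3 months, -59 to -27 at 5 months and -38 to -16 at 7 months. Against the rest, length differed by -0.0942 to -0.0565, the log2 ratio of shares by -0.055 to 0.026 and non-functional joints by -2.71 to -1.32 points. These were 16 reversals and 17 changes of call in 624 fits. Of 234 other alternatives, 192 kept direction and call.

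Depth limits the rarest members, since 296 of 1762 TRAV10 clonotypes had 3 or fewer counts.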
